A study of Mus musculus with 2 samples.

Results

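The nuclear and mitochondrial genes for the subunits of oxidative phosphorylation were followed through the cell classes of bleomycin-injured mouse lung. Members were all genes whose symbol begins with Ndufa, Ndufb, Ndufc, Ndufs, Ndufv, Uqcr, Atp5 or Cox followed by a number from 4 to 8, the genes Sdha, Sdhb, Sdhc and Sdhd, and the mitochondrial genes for subunits. These patterns matched 105 of the 27998 genes in the count tables, and 104 of them had at least 20 unique molecular identifiers (UMIs, each standing for 1 captured RNA molecule) over both libraries. Cox8c, with 5 UMIs, was not kept. Of the 105, 82 are nuclear subunit genes and 13 are mitochondrially encoded subunit genes. A further 10 match by name only (the assembly factors Ndufaf1 to Ndufaf7, and Cox7a2l, Atp5s and Atp5sl) and are given apart. The 81 nuclear subunits kept were 36 of complex I, 4 of complex II, 8 of complex III, 18 of complex IV and 15 of complex V. Ndufa4 and Ndufa4l2 were counted with complex IV, where their proteins are now placed.

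The navitoclax group was C57Bl6 mice that received bleomycin, an agent that injures the lung and leads to fibrosis, on day 1 and navitoclax (ABT-263), an inhibitor of BCL-2 family survival proteins, from day 15 to day 20. The vehicle group was C57Bl6 mice that received the same bleomycin injury and vehicle. Lungs were harvested on day 21, digested with enzymes and flow-sorted for epithelial and stromal cells, and each group was captured as 1 library with a Chromium 3′ kit. Both groups carry the injury, no uninjured lung was analysed here, and the labels do not say how many mice a library holds. With 1 library per group no test between the groups was possible. Every interval below is a 95% interval for counting error only, which covers no difference between cells, mice or preparations.

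The total depth of the libraries was alike, at 98517048 UMIs over 8064 barcodes for navitoclax and 97958947 UMIs over 8784 barcodes for vehicle. After filters on genes, mitochondrial UMIs and doublets, 6228 navitoclax and 7174 vehicle cells were left, and 20 barcodes occurred in both libraries. Cells were gated by marker genes into 11 classes with at least 30 cells per library, called by the cell type they resemble. Each class held 2 to 7 of its own markers among its 10 leading genes and no more than 1 of any other class. Cells were gated on these same markers, so the count describes the classes and cannot test their names. Only the 5 classes that reached 100 cells in each library were set against each other between the libraries: alveolar type II-like (AT2-like) cells with 2559 navitoclax and 2811 vehicle cells, ciliated-like cells with 434 navitoclax and 382 vehicle cells, alveolar fibroblast-like cells with 1982 navitoclax and 2585 vehicle cells, adventitial fibroblast-like cells with 412 navitoclax and 465 vehicle cells, and peribronchial fibroblast-like cells with 182 navitoclax and 140 vehicle cells. In each of these 5 classes the median UMIs per cell were higher in the navitoclax library. They were 19634 in navitoclax and 17893 in vehicle AT2-like cells, and 6507 in navitoclax and 5498 in vehicle peribronchial fibroblast-like cells. Levels are in CPM, the UMIs of a gene summed over the cells of a class, per 1000000 UMIs of that class and library. They are not divided by gene length, since a 3′ kit counts transcript ends, so levels are compared only for the same gene or the same gene group.

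Oxidative phosphorylation passes electrons from NADH (complex I) and succinate (complex II) through complex III to cytochrome c and oxygen (complex IV). It pumps protons across the inner mitochondrial membrane and uses their return to make ATP (complex V). Complex II is encoded wholly in the nucleus, and the other complexes combine nuclear and mitochondrially encoded subunits. Several nuclear subunits of complex IV and the ring subunit of complex V have paralogues that replace each other in particular tissues. In the lung, ciliated cells spend ATP on the beat of their cilia and AT2 cells on the making and secretion of surfactant.

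Promoter sequences are shown for paralogues that differ most between the classes and have an entry in the RefSeq table used here (GRCm38.p6, 250 bases before to 50 bases after the gene's start, 5′ to 3′ on the gene's strand, all 5 on the minus strand). Capitals mark matches on either strand to the core letters of NRF1 (GCGC, any base, then TGCGC) or of ETS factors such as GABPA (CCGGAAG, which reads CTTCCGG on the other strand). The windows lie at chr5:115348909-115349208 for Cox6a1, chr7:30626065-30626364 for Cox6b1, chr7:4753045-4753344 for Cox6b2, chr19:7217567-7217866 for Cox8a and chr7:140900397-140900696 for Cox8b. Cox6a1, Cox6b1 and Cox8a are the broadly expressed members, Cox6b2 and Cox8b are restricted ones, and Cox6a1 stands without its partner Cox6a2.
Cox6a1: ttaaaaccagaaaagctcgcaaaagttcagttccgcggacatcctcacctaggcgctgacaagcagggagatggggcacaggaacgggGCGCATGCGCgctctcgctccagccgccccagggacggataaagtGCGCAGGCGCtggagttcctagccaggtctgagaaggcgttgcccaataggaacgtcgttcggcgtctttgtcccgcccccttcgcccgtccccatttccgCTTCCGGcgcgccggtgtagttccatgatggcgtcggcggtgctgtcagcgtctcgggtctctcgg
Cox6b1: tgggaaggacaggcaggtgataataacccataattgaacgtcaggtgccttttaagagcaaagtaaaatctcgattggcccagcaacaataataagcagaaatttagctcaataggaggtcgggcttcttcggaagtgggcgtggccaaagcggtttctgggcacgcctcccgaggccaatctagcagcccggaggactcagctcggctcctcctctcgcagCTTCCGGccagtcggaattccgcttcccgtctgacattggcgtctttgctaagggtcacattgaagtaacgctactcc
Cox6b2: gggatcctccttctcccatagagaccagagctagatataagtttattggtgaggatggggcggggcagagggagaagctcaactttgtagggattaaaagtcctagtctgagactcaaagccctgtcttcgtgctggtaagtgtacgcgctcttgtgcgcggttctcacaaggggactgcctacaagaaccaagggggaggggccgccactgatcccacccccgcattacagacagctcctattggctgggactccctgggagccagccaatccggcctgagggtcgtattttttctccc
Cox8a: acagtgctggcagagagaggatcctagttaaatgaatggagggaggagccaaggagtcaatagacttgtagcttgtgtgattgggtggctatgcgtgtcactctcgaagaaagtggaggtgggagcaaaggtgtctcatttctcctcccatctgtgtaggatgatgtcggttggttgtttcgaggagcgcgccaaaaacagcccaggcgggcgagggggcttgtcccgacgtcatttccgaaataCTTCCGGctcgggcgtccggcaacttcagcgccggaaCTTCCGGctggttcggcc
Cox8b: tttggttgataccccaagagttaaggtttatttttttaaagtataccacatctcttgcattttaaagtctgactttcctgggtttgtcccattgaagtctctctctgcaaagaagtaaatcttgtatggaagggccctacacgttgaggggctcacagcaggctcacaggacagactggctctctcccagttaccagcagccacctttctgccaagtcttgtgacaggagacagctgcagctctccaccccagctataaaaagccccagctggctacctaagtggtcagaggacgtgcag

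The printed windows of Cox6a1, Cox6b1 and Cox8a held the NRF1 letters, the ETS letters or both, and those of Cox6b2 and Cox8b held neither. The letters did not divide broad from restricted forms in the other families with a window: those of the broadly expressed Cox7a2 and Ndufa4 held none of the letters searched, nor did that of the muscle form Cox7a1. The G and C content was 63.0% in the Cox6a1 window, 53.0% in that of Cox6b1, 55.7% in that of Cox6b2, 56.0% in that of Cox8a and 48.3% in that of Cox8b. The number of CG pairs was 32 for Cox6a1, 17 for Cox6b1, 10 for Cox6b2, 19 for Cox8a and 2 for Cox8b.

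Among the 67 nuclear subunits with a window, the NRF1 letters were found in 17 (25.4%), against 5.19% of all 27025 genes with a window and 10.3% of the 12018 of them with at least 20 UMIs. The ETS letters were found in 16 subunits (23.9%), against 9.93% of all genes and 17.9% of those with at least 20 UMIs. The YY1 letters (AANATGGC) were found in 17 subunits (25.4%), against 6.96% of all genes and 9.06% of those with at least 20 UMIs. At least 1 of the 3 was found in 43 subunits (64.2%), against 19.4% of all genes and 32.0% of those with at least 20 UMIs. A match of letters is a description of the window and not a shown binding site.

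Nuclear subunit transcripts took the greatest share of all UMIs in ciliated-like cells and the smallest in club and secretory-like cells, an order that depended on the total used, as given below. Their summed level was 28989 CPM in navitoclax and 27993 CPM in vehicle ciliated-like cells. In AT2-like cells it was 18603 CPM in the navitoclax and 17744 CPM in the vehicle library. Among fibroblasts it was 18603 CPM in navitoclax and 18190 CPM in vehicle alveolar fibroblast-like cells, 19344 CPM in navitoclax and 18072 CPM in vehicle peribronchial fibroblast-like cells, and 16254 CPM in navitoclax and 15067 CPM in vehicle adventitial fibroblast-like cells. The ciliated-like level was 1.56 times (1.55 to 1.57) the AT2-like level in the navitoclax library and 1.58 times (1.57 to 1.59) in the vehicle library.

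The smaller epithelial classes differed more widely. Transitional-like cells, gated on genes such as Krt8, Cldn4 and Sfn, had 24262 CPM in 57 navitoclax cells and 26303 CPM in 45 vehicle cells. Their leading genes included Sprr1a, Calca and Ltf beside Cldn4 and Sfn, and whether they form a single cell type was not tested. AT1-like cells, the flat cells of gas exchange, had 22429 CPM in 34 navitoclax cells and 21702 CPM in 116 vehicle cells. Club and secretory-like cells of the airway had 11008 CPM in 39 navitoclax cells and 10078 CPM in 65 vehicle cells.

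Over all UMIs, mitochondrially encoded transcripts were also highest in ciliated-like cells, at 69515 CPM in navitoclax and 74146 CPM in vehicle cells. They stood at 50524 CPM in navitoclax and 51303 CPM in vehicle AT2-like cells. In alveolar fibroblast-like cells the sum was 45378 CPM in the navitoclax and 45028 CPM in the vehicle library, and in adventitial fibroblast-like cells 37275 CPM in the navitoclax and 38639 CPM in the vehicle library. Mesothelial-like cells, from the lining of the lung surface, came next to the ciliated-like cells, with 64700 CPM in 30 navitoclax cells and 55476 CPM in 61 vehicle cells. Barcodes with over 15% of their UMIs in the mitochondrial genes, which in these tables are the 13 members, had been removed, so the filter sets the upper end of this quantity in every class. With no limit, navitoclax mesothelial-like cells had 82668 CPM, above the 80331 CPM of navitoclax ciliated-like cells. In the vehicle library the values were then 62126 CPM in mesothelial-like and 91903 CPM in ciliated-like cells.

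The difference between ciliated-like and AT2-like cells depended on the total used for scaling. The 20 most abundant nuclear genes took 40.5% of all UMIs in navitoclax and 39.9% in vehicle AT2-like cells, where the surfactant gene Sftpc alone reached 228710 CPM in the navitoclax and 220935 CPM in the vehicle library. They took 67.3% in navitoclax and 68.7% in vehicle club and secretory-like cells, but 11.3% in navitoclax and 11.9% in vehicle ciliated-like cells. With the 20 most abundant genes of each class left out of its total, nuclear subunits stood at 32699 CPM in navitoclax and 31788 CPM in vehicle ciliated-like cells, and at 31274 CPM in navitoclax and 29544 CPM in vehicle AT2-like cells. Club and secretory-like cells then had 33707 CPM in the navitoclax and 32210 CPM in the vehicle library, above ciliated-like cells in both. Transitional-like cells had 29792 CPM in the navitoclax library and 32492 CPM in the vehicle library, where they were highest. Ciliated-like cells thus no longer led, and club and secretory-like cells were no longer lowest.

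The ratio of ciliated-like to AT2-like cells without those genes was 1.05 (1.04 to 1.05) in the navitoclax and 1.08 (1.07 to 1.08) in the vehicle library. For the mitochondrially encoded genes it was 1.38 (1.37 to 1.38) in the navitoclax and 1.45 (1.44 to 1.45) in the vehicle library over all UMIs. Without the 20 genes it was 0.923 (0.920 to 0.926) in the navitoclax and 0.986 (0.982 to 0.989) in the vehicle library, on the other side of 1. Club and secretory-like cells then had the highest mitochondrially encoded level, 87900 CPM in the navitoclax and 96990 CPM in the vehicle library. Ciliated-like cells had 78411 CPM in the navitoclax and 84197 CPM in the vehicle library. Leaving out the 20 genes was chosen after the data were seen.

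Fibroblast-like cells stayed below ciliated-like cells under both totals. Ciliated-like cells exceeded alveolar fibroblast-like cells in nuclear subunits 1.56 times in the navitoclax and 1.54 times in the vehicle library over all UMIs, and 1.44 times in each library without the 20 genes. For the mitochondrially encoded genes the ratio was 1.53 in the navitoclax and 1.65 in the vehicle library over all UMIs, and 1.42 in the navitoclax and 1.54 in the vehicle library without the 20 genes. AT2-like and alveolar fibroblast-like cells had about the same nuclear level over all UMIs, with ratios of 1.00 (0.996 to 1.00) in the navitoclax and 0.975 (0.972 to 0.979) in the vehicle library. Without the 20 genes AT2-like cells stood 1.38 times (1.37 to 1.38) higher in the navitoclax and 1.33 times (1.33 to 1.34) higher in the vehicle library. Adventitial fibroblast-like cells had the lowest nuclear and mitochondrially encoded level of the 5 larger classes under both totals, in both libraries.

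**Figure D1:**
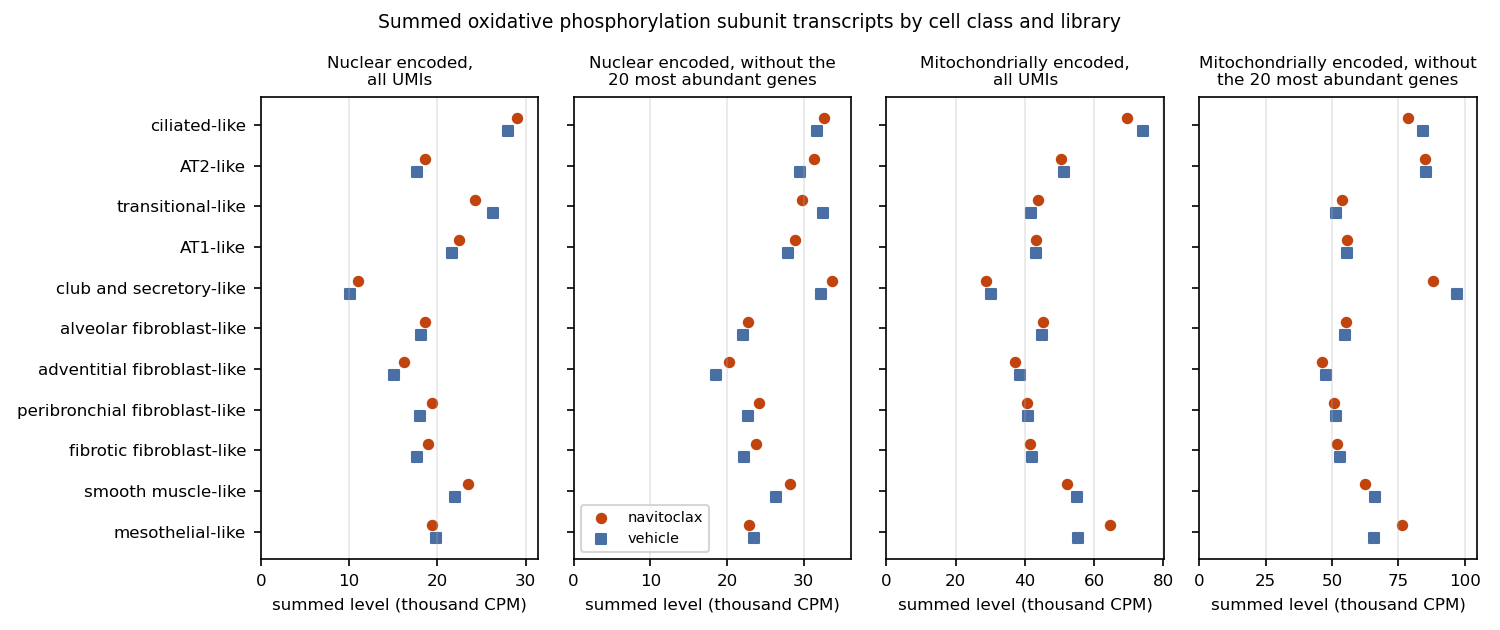
Summed level of nuclear and of mitochondrially encoded subunit transcripts (horizontal axes, 1000 CPM) in each of 11 cell classes (rows), over all UMIs and without the 20 most abundant genes of each class. Circles are the navitoclax library and squares the vehicle library, without error bars. Ciliated-like cells lead the nuclear panel over all UMIs with 28989 CPM in the navitoclax and 27993 CPM in the vehicle library. Once the 20 genes are left out, AT2-like cells move next to them in that panel. Club and secretory-like cells of both libraries and transitional-like cells of the vehicle library then stand above them.

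Most single subunits followed the sum. Of the 80 nuclear subunits with at least 100 UMIs, 61 were highest in ciliated-like cells among the 5 larger classes, where 37.6% of all 13432 genes with that depth were highest. Another 8 were highest in alveolar fibroblast-like cells (19.9% of all genes), 6 in peribronchial fibroblast-like cells (20.5%), 4 in AT2-like cells (11.5%) and 1 in adventitial fibroblast-like cells (10.4%). Without the 20 genes the count was 44 in ciliated-like cells (30.5% of all genes) and 25 in AT2-like cells (21.8%). The median ratio of the highest to the lowest class was 1.90 for the 80 subunits and 2.30 for all genes, on CPM plus 5. A range of 3-fold or more was found for 11 of 80 subunits (13.8%) and for 36.9% of all genes. All genes with at least 100 UMIs entered, not matched to the subunits for level, so a narrower range than genes of like level is not shown.

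The 11 subunits with a range of 3-fold or more over these 5 classes, named after their values were seen, were of 2 kinds. Ndufc2, Ndufab1 and Ndufa12 of complex I, Sdhd of complex II, and Cox5a and Cox7a1 of complex IV were highest in ciliated-like cells. Cox6a2, Cox6b2, Cox8b, Cox4i2 and Ndufa4l2, all of complex IV, were each highest in another class.

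In complex I, the NADH dehydrogenase, Ndufc2 encodes a small accessory subunit of the membrane arm. Its level was 782 CPM in navitoclax and 774 CPM in vehicle ciliated-like cells, and 369 CPM in navitoclax and 344 CPM in vehicle AT2-like cells. Of the 5 larger classes, the 3 fibroblast-like ones were lowest, between 161 CPM in vehicle peribronchial and 232 CPM in navitoclax alveolar fibroblast-like cells. Without the 20 genes Ndufc2 was at 882 CPM in navitoclax and 879 CPM in vehicle ciliated-like cells, and 621 CPM in navitoclax and 573 CPM in vehicle AT2-like cells. Ndufab1, the mitochondrial acyl carrier protein that is also a subunit of complex I, had 420 CPM in navitoclax and 411 CPM in vehicle ciliated-like cells. The lowest of the 5 larger classes, adventitial fibroblast-like cells, had 125 CPM in the navitoclax and 108 CPM in the vehicle library. Ndufa12, another accessory subunit, had 342 CPM in navitoclax and 338 CPM in vehicle ciliated-like cells, and 105 CPM in navitoclax and 101 CPM in vehicle adventitial fibroblast-like cells.

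In complex II, succinate dehydrogenase, the 4 subunits did not share 1 pattern over the classes. Sdhd, a membrane anchor, had 286 CPM in navitoclax and 275 CPM in vehicle ciliated-like cells. In AT2-like cells Sdhd had 65.2 CPM in the navitoclax and 59.4 CPM in the vehicle library, and the fibroblast-like classes lay between 61.4 and 79.3 CPM. Both ciliated-like values were above 3 times every other value of the 5 larger classes. Without the 20 genes Sdhd stood at 322 CPM in navitoclax and 312 CPM in vehicle ciliated-like cells, and 110 CPM in navitoclax and 98.8 CPM in vehicle AT2-like cells.

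The other subunits of complex II were more even. Sdhc, the second membrane anchor, had 97.9 CPM in navitoclax and 89.8 CPM in vehicle ciliated-like cells, and 79.3 CPM in navitoclax and 80.0 CPM in vehicle AT2-like cells. The flavoprotein Sdha, which oxidises succinate, had 105 CPM in navitoclax and 101 CPM in vehicle ciliated-like cells, and 93.2 CPM in navitoclax and 96.6 CPM in vehicle AT2-like cells. The iron-sulphur subunit Sdhb had 118 CPM in navitoclax and 122 CPM in vehicle ciliated-like cells, and 67.2 CPM in navitoclax and 60.6 CPM in vehicle AT2-like cells. Over all UMIs the range over the 5 classes was 4.24-fold for Sdhd, 1.81-fold for Sdhb, 1.58-fold for Sdhc and 1.37-fold for Sdha. Without the 20 most abundant genes, Sdha and Sdhc were instead higher in AT2-like than in ciliated-like cells of both libraries. Sdhb stayed higher in ciliated-like cells.

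In complex III, the cytochrome bc1 complex, and complex V, the ATP synthase, no nuclear member reached a 3-fold range. Summed over complex III, ciliated-like cells had 3050 CPM in the navitoclax and 2907 CPM in the vehicle library, and AT2-like cells 2024 CPM in the navitoclax and 1939 CPM in the vehicle library. Over complex V the sum was 7198 CPM in navitoclax and 6891 CPM in vehicle ciliated-like cells, and 5109 CPM in navitoclax and 4833 CPM in vehicle AT2-like cells. Both sums are over all UMIs. Without the 20 most abundant genes the complex V sum was higher in AT2-like cells of both libraries. The complex III sum was then about the same in the 2 classes. Of the genes matched by name only, the assembly factor Ndufaf3 had the widest range over the 5 larger classes, 5.94-fold, with 210 CPM in navitoclax and 179 CPM in vehicle ciliated-like cells, and 27.0 CPM in navitoclax and 30.2 CPM in vehicle adventitial fibroblast-like cells. Cox7a2l was lowest in ciliated-like cells among the 5 larger classes, with 179 CPM in the navitoclax and 186 CPM in the vehicle library.

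**Figure D2:**
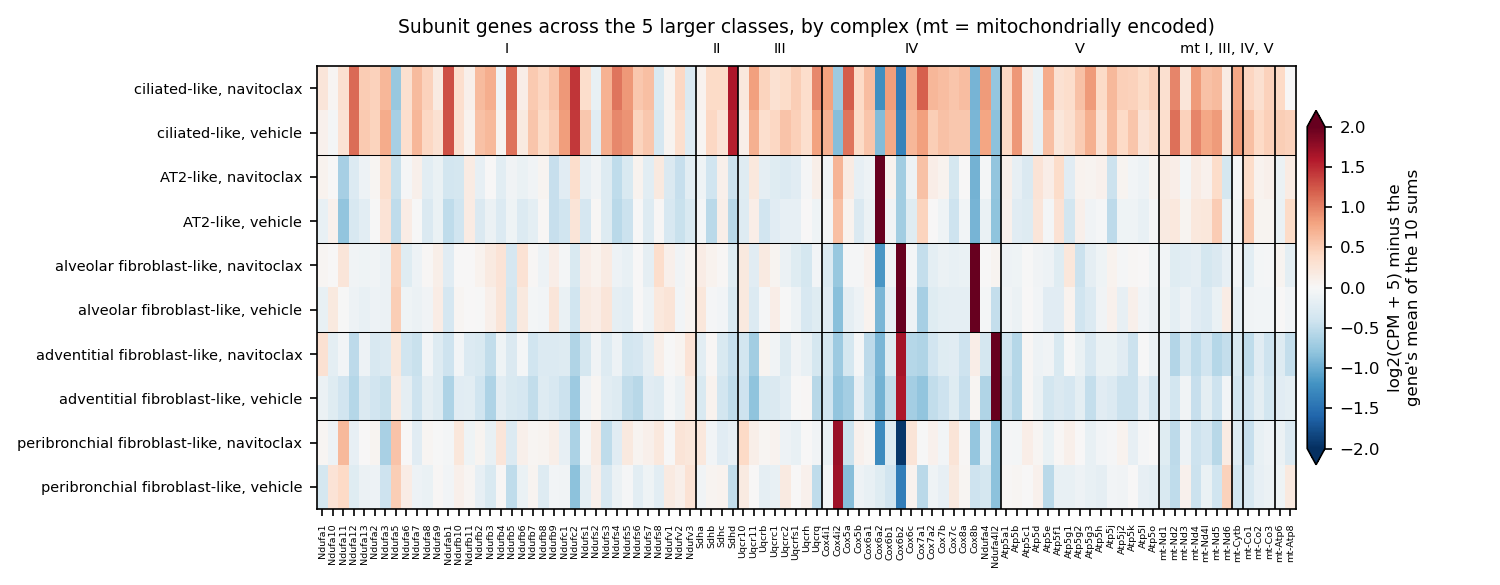
Each subunit gene (columns, grouped by complex, with the mitochondrially encoded genes at the right) in the 5 larger classes and both libraries (rows). Colour is log2(CPM + 5) minus the gene's mean over the 10 rows, from blue (lower) to red (higher). The ciliated-like rows are red for most genes, and the darkest cells in complex IV are Cox4i2, Cox6a2, Cox6b2, Cox8b and Ndufa4l2, each in other classes.

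The widest class differences were those of complex IV paralogues, and the share of a paralogue within its own family does not depend on the total of the class. Cox6a2 encodes the heart and skeletal muscle form of subunit 6a, and Cox6a1 the form found in most tissues. Cox6a2 (chromosome 7, 128205435 to 128206387, minus strand, GRCm38) made up 46.8% (46.1 to 47.5) of the UMIs of the pair in navitoclax and 52.7% (52.0 to 53.3) in vehicle AT2-like cells. Its share was 0.497% (0.238 to 0.911) in navitoclax and 1.08% (0.604 to 1.77) in vehicle ciliated-like cells, and 0.824% (0.568 to 1.15) in navitoclax and 1.37% (1.06 to 1.74) in vehicle alveolar fibroblast-like cells. As a level, Cox6a2 was at 187 CPM in navitoclax and 233 CPM in vehicle AT2-like cells, and at 1.76 CPM in navitoclax and 3.68 CPM in vehicle ciliated-like cells.

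The transitional-like and AT1-like classes lay between. The share of Cox6a2 was 22.8% (19.1 to 26.8) in navitoclax and 36.8% (32.2 to 41.7) in vehicle transitional-like cells, and 31.3% (24.0 to 39.4) in navitoclax and 10.4% (7.60 to 13.8) in vehicle AT1-like cells. These rest on few cells: 1 navitoclax transitional-like cell held 36 of 109 Cox6a2 UMIs, and 1 navitoclax AT1-like cell 19 of 47. The 9 markers of club and secretory cells summed to 25670 CPM in navitoclax transitional-like cells, with 0 of them at 0, and to 1566 CPM in vehicle transitional-like cells, with 4 at 0. In AT1-like cells the same markers summed to 16296 CPM in the navitoclax library, with 4 at 0, and to 900.5 CPM in the vehicle library, with 3 at 0. Their part in the Cox6a2 share was not tested.

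A Cox6a2 UMI was seen in 74.1% of navitoclax AT2-like cells, at a median of 19634 UMIs per cell, and in 76.0% of vehicle AT2-like cells, at a median of 17893. In ciliated-like cells it was seen in 2.30% of navitoclax cells, at a median of 12325.5 UMIs, and in 2.62% of vehicle cells, at a median of 9990.5. With every cell thinned to 2000 UMIs the share was 28.2% in navitoclax and 30.8% in vehicle AT2-like cells. In thinned ciliated-like cells it was 0 of 417 in the navitoclax library (up to 0.881% at that depth) and 0.535% in the vehicle library.

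The few Cox6a2 UMIs of the other classes were set against those of Sftpc, a gene of AT2 cells. Per 1000 Sftpc UMIs there were 0.817 Cox6a2 UMIs in navitoclax and 1.05 in vehicle AT2-like cells, 0.779 in navitoclax and 1.24 in vehicle ciliated-like cells, and 0.854 in navitoclax and 1.70 in vehicle alveolar fibroblast-like cells. In adventitial fibroblast-like cells the ratio was 1.86 in the navitoclax library, from 14 Cox6a2 UMIs, and 1.67 in the vehicle library, from 13. In peribronchial fibroblast-like cells it was 0.604 in the navitoclax library, from 2 Cox6a2 UMIs, and 3.61 in the vehicle library, from 7. Mesothelial-like cells had 4.997 in the navitoclax library, from 8 Cox6a2 UMIs, and 0.801 in the vehicle library, from 4. The ratio was 10.8 in navitoclax and 2.05 in vehicle AT1-like cells, and 2.87 in navitoclax and 6.42 in vehicle transitional-like cells. The ratio thus lay near that of AT2-like cells in some classes and above it in others, and whether the Cox6a2 UMIs outside the alveolar epithelial classes are free RNA was not tested.

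Cox6b2 encodes the form of subunit 6b best known from testis, and here it was highest in fibroblast-like cells. Cox6b2 (chromosome 7, 4751792 to 4753094, minus strand) made up 32.6% (31.6 to 33.6) of the pair with Cox6b1 in navitoclax and 34.5% (33.5 to 35.4) in vehicle alveolar fibroblast-like cells. In adventitial fibroblast-like cells its share was 29.1% (26.9 to 31.2) in the navitoclax and 32.2% (29.8 to 34.6) in the vehicle library. Peribronchial fibroblast-like cells had 1.85% (0.746 to 3.77) in the navitoclax and 3.77% (1.74 to 7.03) in the vehicle library, within the range of the larger epithelial classes. AT2-like cells had 5.10% in the navitoclax and 5.60% in the vehicle library, and ciliated-like cells 1.57% in the navitoclax and 1.82% in the vehicle library.

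Fibrotic fibroblast-like cells, the Cthrc1-expressing cells of scars, had a Cox6b2 share of 17.3% (12.9 to 22.4) in the navitoclax and 16.4% (11.7 to 22.0) in the vehicle library, and mesothelial-like cells had 19.3% in the navitoclax and 22.5% in the vehicle library. As a level, Cox6b2 was at 167 CPM in navitoclax and 170 CPM in vehicle alveolar fibroblast-like cells, and at 5.66 CPM in navitoclax and 10.7 CPM in vehicle peribronchial fibroblast-like cells. After thinning, 24.6% of navitoclax and 24.9% of vehicle alveolar fibroblast-like cells had a Cox6b2 UMI, against 55.4% of navitoclax and 53.9% of vehicle cells before thinning. In ciliated-like cells the thinned share was 1.68% in the navitoclax and 0.802% in the vehicle library. Its promoter window, printed above, held neither the NRF1 nor the ETS letters, and that of Cox6b1 held the ETS letters.

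Cox8b, the heart and muscle form of subunit 8, was highest in alveolar fibroblast-like cells. Its share of the Cox8 family was 6.26% (5.82 to 6.72) in navitoclax and 7.16% (6.73 to 7.61) in vehicle alveolar fibroblast-like cells, and 1.07% (0.688 to 1.59) in navitoclax and 0.978% (0.606 to 1.49) in vehicle adventitial fibroblast-like cells. In AT2-like cells it was 0.0159% in the navitoclax and 0.0281% in the vehicle library. The level of Cox8b was 43.5 CPM in navitoclax and 49.0 CPM in vehicle alveolar fibroblast-like cells. A Cox8b UMI was seen in 7.80% of navitoclax and 8.27% of vehicle alveolar fibroblast-like cells thinned to 2000 UMIs, against 24.9% of navitoclax cells, at a median of 7866.5 UMIs, and 24.5% of vehicle cells, at a median of 7301, before thinning. In AT2-like cells a Cox8b UMI was seen in 6 of 2559 navitoclax cells (0.234%) and 9 of 2811 vehicle cells (0.320%) before thinning. After thinning it was seen in 0 of 2523 navitoclax and 0 of 2774 vehicle AT2-like cells, so it was not detectable there at 2000 UMIs per cell.

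Ndufa4l2, a paralogue of the complex IV subunit Ndufa4 that is induced by low oxygen, was found in adventitial fibroblast-like and smooth muscle-like cells. Ndufa4l2 made up 12.1% (10.7 to 13.6) of the pair in navitoclax and 10.5% (9.04 to 12.1) in vehicle adventitial fibroblast-like cells. In smooth muscle-like cells it made up 15.2% (11.6 to 19.5) in 67 navitoclax cells and 10.6% (7.62 to 14.3) in 95 vehicle cells, and it was seen in 13 and 12 of these cells. Its share was 0.748% in navitoclax and 0.252% in vehicle alveolar fibroblast-like cells. In peribronchial fibroblast-like cells 0 of 611 navitoclax UMIs of the pair were Ndufa4l2, which allows up to 0.602%, and 0 of 357 vehicle UMIs, which allows up to 1.03%. After thinning, 9.26% of navitoclax and 6.64% of vehicle adventitial fibroblast-like cells had an Ndufa4l2 UMI, against 29.6% of navitoclax and 22.4% of vehicle cells before thinning. In AT2-like cells it was seen in 4 of 2559 navitoclax and 2 of 2811 vehicle cells before thinning and in none after it.

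Cox4i2, a second form of subunit 4 best known from lung, was highest in smooth muscle-like and peribronchial fibroblast-like cells. Its share of the pair with Cox4i1 was 8.54% (6.22 to 11.4) in navitoclax and 7.26% (5.31 to 9.66) in vehicle smooth muscle-like cells. A single navitoclax smooth muscle-like cell held 24 of the 42 Cox4i2 UMIs, and the top vehicle cell held 6 of 43. Cox4i2 was seen in 13 of 67 navitoclax and 20 of 95 vehicle cells of that class. Pericyte-like cells, 3 navitoclax and 5 vehicle, were too few for a class of their own. The 9 pericyte markers summed to 1213 CPM in navitoclax and 1293 CPM in vehicle smooth muscle-like cells, with 0 of them at 0. The part of pericytes in the Cox4i2 and Ndufa4l2 shares was not tested. The Cox4i2 share was 4.19% (2.95 to 5.76) in navitoclax and 3.89% (2.51 to 5.73) in vehicle peribronchial fibroblast-like cells, and 0.182% (0.108 to 0.287) in navitoclax and 0.123% (0.0688 to 0.203) in vehicle alveolar fibroblast-like cells. In AT2-like cells it was 1.64% (1.51 to 1.78) in the navitoclax and 1.47% (1.35 to 1.60) in the vehicle library. Between peribronchial and alveolar fibroblast-like cells, Cox4i2 and Cox6b2 stood in opposite order.

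The remaining families were less divided. Cox7a1, the muscle form of subunit 7a, made up 2.02% of its pair with Cox7a2 in navitoclax and 1.89% in vehicle AT2-like cells, and 0.456% in navitoclax and 0.225% in vehicle alveolar fibroblast-like cells. Cox7b2 reached 0.828% of its pair with Cox7b in navitoclax alveolar fibroblast-like cells, from 34 UMIs, and 0.923% in vehicle ones, from 43 UMIs. The genes Atp5g1, Atp5g2 and Atp5g3 encode the same mature ring subunit of the ATP synthase. Atp5g1 made up 40.8% (39.9 to 41.8) of the 3 in navitoclax and 38.6% (37.7 to 39.5) in vehicle alveolar fibroblast-like cells, and 27.6% (27.1 to 28.0) in navitoclax and 26.1% (25.6 to 26.5) in vehicle AT2-like cells. Atp5g2 made up 44.0% in navitoclax and 46.6% in vehicle AT2-like cells, and 33.1% in navitoclax and 35.6% in vehicle alveolar fibroblast-like cells.

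**Figure D3:**
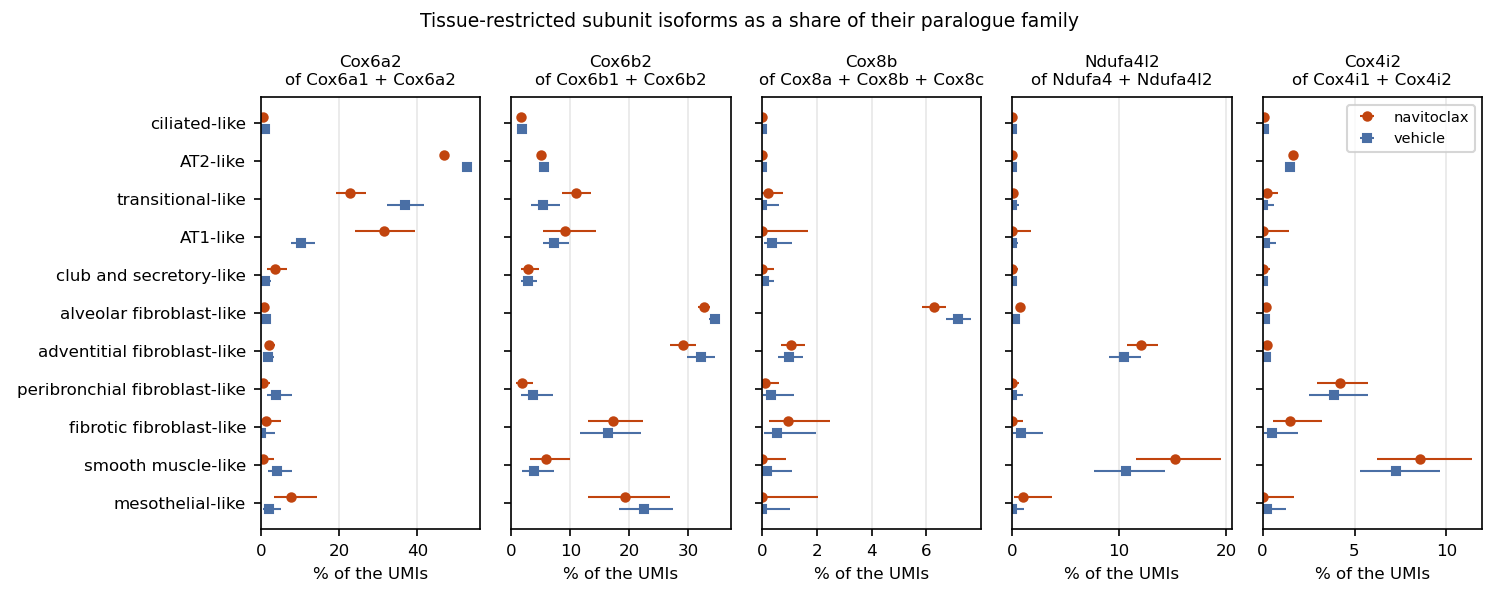
Share of 5 tissue-restricted isoforms in the UMIs of their paralogue family (horizontal axes, %) by cell class (rows). Circles are the navitoclax and squares the vehicle library, with 95% Clopper-Pearson intervals for counting error as bars. Cox6a2 peaks in AT2-like cells at 46.8% in the navitoclax and 52.7% in the vehicle library, Cox6b2 in alveolar fibroblast-like cells at 32.6% in the navitoclax and 34.5% in the vehicle library, and Ndufa4l2 and Cox4i2 in smooth muscle-like cells.

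The mitochondrially encoded genes are cut from long common precursors, and their proportions differed between the classes. The complex I gene mt-Nd2 made up 10.3% (10.2 to 10.4) of the UMIs of the 13 genes in navitoclax and 10.5% (10.4 to 10.6) in vehicle ciliated-like cells. Its share was 7.86% in navitoclax and 8.20% in vehicle AT2-like cells, and 6.77% in navitoclax and 7.06% in vehicle alveolar fibroblast-like cells. The ATP synthase gene mt-Atp6 made up 23.6% in navitoclax and 22.9% in vehicle alveolar fibroblast-like cells, and 18.8% in navitoclax and 18.3% in vehicle AT2-like cells. The cytochrome oxidase gene mt-Co1 had its greatest share in AT2-like cells, 12.7% in the navitoclax and 13.9% in the vehicle library, and 9.64% in navitoclax and 10.2% in vehicle ciliated-like cells. The annotated genes mt-Atp8 and mt-Atp6, and mt-Nd4l and mt-Nd4, overlap on the same strand, so UMIs in the overlaps may belong to either gene. The genes mt-Nd5 and mt-Nd6 also overlap but lie on opposite strands.

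Between the libraries, nuclear subunit transcripts were slightly higher in navitoclax cells of all 5 classes. The ratio of the summed level, navitoclax over vehicle, was 1.05 (1.045 to 1.051) in AT2-like cells and 1.04 (1.03 to 1.04) in ciliated-like cells. It was 1.02 (1.02 to 1.03) in alveolar, 1.08 (1.07 to 1.09) in adventitial and 1.07 (1.05 to 1.09) in peribronchial fibroblast-like cells. Among single members, the log2 ratio of CPM plus 5 was above 0 for 61 of 78 nuclear subunits in AT2-like cells, where 53.3% of all genes tested were above 0. It was above 0 for 57 of 77 in ciliated-like (52.5% of all genes), 48 of 81 in alveolar (50.3%), 63 of 78 in adventitial (50.6%) and 52 of 75 in peribronchial fibroblast-like cells (51.9%). The median was 0.07 in AT2-like cells (0.01 over all genes), 0.03 in ciliated-like cells (0.01), 0.03 in alveolar (0.00), 0.09 in adventitial (0.01) and 0.13 in peribronchial fibroblast-like cells (0.02). The classes come from the same pair of libraries and are not independent of each other.

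Few members passed a difference of 0.32 on the log2 scale in either direction. The shares of all genes in brackets cover every gene with at least 20 UMIs and are not matched for level. They do not show that subunits differ less than genes of like level. The counts were 0 of 78 in AT2-like cells (1.43% of all genes), 2 of 77 in ciliated-like cells (9.55%), 1 of 81 in alveolar fibroblast-like cells (3.27%), 6 of 78 in adventitial fibroblast-like cells (14.7%) and 7 of 75 in peribronchial fibroblast-like cells (33.0%). All 6 in adventitial fibroblast-like cells were higher in the navitoclax library. Thus 6 of 78 members passed in that direction, near the 7.64% of all genes tested that did so. By complex, 29 of 36 members of complex I, 2 of 4 of complex II, 4 of 8 of complex III, 13 of 15 of complex IV and 13 of 15 of complex V were above 0 in AT2-like cells. Of all genes tested in AT2-like cells 53.3% were above 0, so the counts for complexes II and III were near that share. The summed ratio there was 1.05 (1.04 to 1.05) for complex I, 1.03 (1.01 to 1.05) for complex II, 1.04 (1.03 to 1.05) for complex III, 1.05 (1.04 to 1.05) for complex IV and 1.06 (1.05 to 1.06) for complex V.

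In complex I, Ndufa1, an accessory subunit encoded on the X chromosome, stood at 181 CPM in navitoclax and 153 CPM in vehicle AT2-like cells, a ratio of 1.18 (1.14 to 1.21). The ratio of Ndufa1 was 1.35 (1.22 to 1.50) in adventitial, 1.32 (1.05 to 1.68) in peribronchial and 1.14 (1.08 to 1.20) in alveolar fibroblast-like cells, and 1.12 (1.02 to 1.23) in ciliated-like cells. All 5 intervals lay above 1. Ndufa11, a membrane-arm subunit, had 277 CPM in navitoclax and 230 CPM in vehicle alveolar fibroblast-like cells, a ratio of 1.20 (1.16 to 1.26), and a ratio of 1.03 (0.952 to 1.11) in ciliated-like cells. Ndufa6, an accessory subunit named after its values were seen, ran the other way. It had 231 CPM in navitoclax and 261 CPM in vehicle AT2-like cells, a ratio of 0.885 (0.863 to 0.907), and a ratio of 0.891 (0.851 to 0.932) in alveolar fibroblast-like cells.

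The members of complex II had ratios near 1. In AT2-like cells the ratio was 0.965 (0.927 to 1.00) for Sdha, 1.11 (1.06 to 1.16) for Sdhb, 0.991 (0.949 to 1.04) for Sdhc and 1.10 (1.05 to 1.15) for Sdhd. In alveolar fibroblast-like cells it was 0.951 (0.893 to 1.01) for Sdha, 1.07 (0.996 to 1.14) for Sdhb, 1.07 (0.987 to 1.15) for Sdhc and 1.04 (0.965 to 1.13) for Sdhd. The intervals of these 8 ratios held 1 except for Sdhb and Sdhd in AT2-like cells.

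In complex III, Uqcrb and Uqcrq encode small accessory subunits. Uqcrb had 326 CPM in navitoclax and 282 CPM in vehicle AT2-like cells (ratio 1.15, 1.13 to 1.18), and 383 CPM in navitoclax and 296 CPM in vehicle adventitial fibroblast-like cells (ratio 1.29, 1.20 to 1.39). Uqcrq had 502 CPM in navitoclax and 446 CPM in vehicle ciliated-like cells (ratio 1.13, 1.06 to 1.20), and 242 CPM in navitoclax and 178 CPM in vehicle peribronchial fibroblast-like cells (ratio 1.36, 1.11 to 1.67). In complex V, Atp5e, the epsilon subunit of the catalytic head, had 713 CPM in navitoclax and 639 CPM in vehicle AT2-like cells (ratio 1.12, 1.10 to 1.13). In adventitial fibroblast-like cells Atp5e had 624 CPM in the navitoclax and 505 CPM in the vehicle library (ratio 1.23, 1.16 to 1.31).

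In complex IV, Cox6a2 was the nuclear member furthest below 1 in AT2-like cells. Its ratio was 0.803 (0.782 to 0.825), from 187 CPM in navitoclax and 233 CPM in vehicle cells. Within the AT2-like class Cox6a2 ran between 117 and 270 CPM in 8 clusters of navitoclax cells and between 102 and 343 CPM in the same clusters of vehicle cells, and it was lower in the navitoclax library in 7 of 8. Cox7a2, the broad form of subunit 7a, had 601 CPM in navitoclax and 536 CPM in vehicle ciliated-like cells, a ratio of 1.12 (1.06 to 1.18). Ndufa4l2 was higher in navitoclax than in vehicle cells of both fibroblast-like classes where it was compared. It had 58.8 CPM in navitoclax and 42.0 CPM in vehicle adventitial fibroblast-like cells, a ratio of 1.40 (1.15 to 1.71). In alveolar fibroblast-like cells it had 4.14 CPM in the navitoclax and 1.33 CPM in the vehicle library, a ratio of 3.10 (1.95 to 5.08) that rests on 68 navitoclax UMIs, 14 of them from 1 cell, and 26 vehicle UMIs.

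Of the genes matched by name only, Cox7a2l had 294 CPM in navitoclax and 340 CPM in vehicle AT2-like cells (ratio 0.865, 0.846 to 0.884), and 239 CPM in navitoclax and 282 CPM in vehicle alveolar fibroblast-like cells (ratio 0.846, 0.812 to 0.882). The ratio of the assembly factor Ndufaf3 was 1.18 (1.07 to 1.29) in ciliated-like cells, and its log2 ratio was -0.11 when all cells were thinned to 2000 UMIs.

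**Figure D4:**
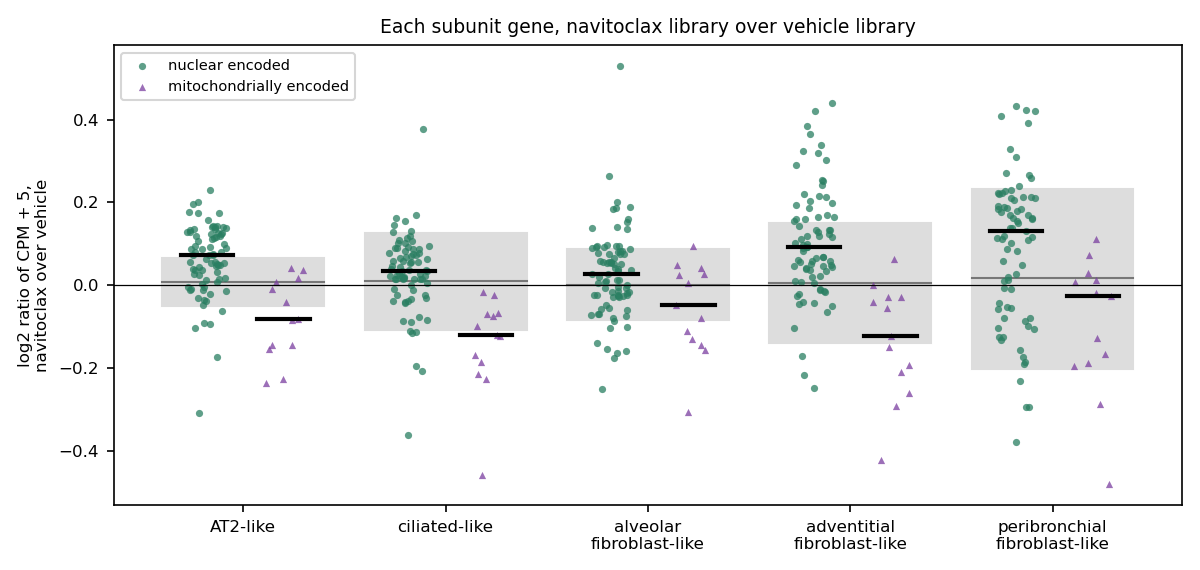
Log2 ratio of CPM plus 5, navitoclax over vehicle (vertical axis), for each nuclear (circles) and mitochondrially encoded (triangles) subunit with at least 20 UMIs in the class, for 5 classes. Thick bars are medians of the members, and grey boxes and grey lines are the interquartile range and the median of all genes tested. Nuclear medians run between 0.03 and 0.13 and mitochondrially encoded medians between -0.12 and -0.03.

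The mitochondrially encoded genes, unlike the nuclear ones, were not higher in the navitoclax library in all classes. Their summed ratio, navitoclax over vehicle, was 0.985 (0.983 to 0.987) in AT2-like cells and 0.938 (0.933 to 0.942) in ciliated-like cells. It was 1.01 (1.00 to 1.01) in alveolar, 0.965 (0.958 to 0.971) in adventitial and 0.995 (0.981 to 1.01) in peribronchial fibroblast-like cells. Of the 13 genes, 4 were above 0 in AT2-like cells (53.3% of all genes), 0 in ciliated-like cells (52.5%), 6 in alveolar (50.3%), 2 in adventitial (50.6%) and 5 in peribronchial fibroblast-like cells (51.9%). The counts in alveolar and peribronchial fibroblast-like cells were thus near the share of all genes. The median log2 ratio was -0.08 in AT2-like cells, -0.12 in ciliated-like cells, -0.05 in alveolar, -0.12 in adventitial and -0.03 in peribronchial fibroblast-like cells.

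Single mitochondrial genes differed from each other within the same cells. The complex IV gene mt-Co1 had 6424 CPM in navitoclax and 7148 CPM in vehicle AT2-like cells, a ratio of 0.899 (0.895 to 0.903). The ratio of mt-Co1 was 0.890 (0.876 to 0.903) in ciliated-like cells, 0.914 (0.905 to 0.923) in alveolar, 0.918 (0.897 to 0.939) in adventitial and 0.915 (0.875 to 0.957) in peribronchial fibroblast-like cells, below 1 in all 5 classes. The complex I gene mt-Nd5 had 676 CPM in navitoclax and 747 CPM in vehicle AT2-like cells, a ratio of 0.904 (0.891 to 0.918). The complex III gene mt-Cytb was higher in navitoclax cells of 4 classes, with 5448 CPM in navitoclax and 5290 CPM in vehicle AT2-like cells, a ratio of 1.03 (1.02 to 1.04). In ciliated-like cells mt-Cytb had 9466 CPM in the navitoclax and 9937 CPM in the vehicle library, a ratio of 0.953 (0.940 to 0.965).

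The direction in AT2-like cells depended on which barcodes and which clusters entered. Of all AT2-like barcodes, 19.0% (17.7 to 20.3) of the navitoclax and 11.4% (10.4 to 12.6) of the vehicle ones were over the 15% limit and so removed. With a limit of 30% the summed mitochondrially encoded ratio in AT2-like cells was 1.01, and with no limit it was 1.07. In ciliated-like cells the removed share was 14.4% (11.6 to 17.7) of navitoclax and 19.2% (15.8 to 22.9) of vehicle barcodes. In all fibroblast-like cells it was 2.56% of navitoclax and 1.17% of vehicle barcodes.

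The libraries filled the clusters of AT2-like cells unequally, with 543 navitoclax and 56 vehicle cells in 1 cluster and 62 navitoclax and 251 vehicle cells in another. In the 8 clusters with at least 100 AT2-like cells of each library, the nuclear ratio ran between 0.986 and 1.09. It was above 1 in 7 of them, with the interval above 1 in 6 and below 1 in 1. The mitochondrially encoded ratio ran between 0.940 and 1.06. It was above 1 in 5 of the 8 clusters and below 1 in 3, with every interval off 1, so the direction of the ratio over all AT2-like cells was that of the smaller number of clusters.

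**Figure D5:**
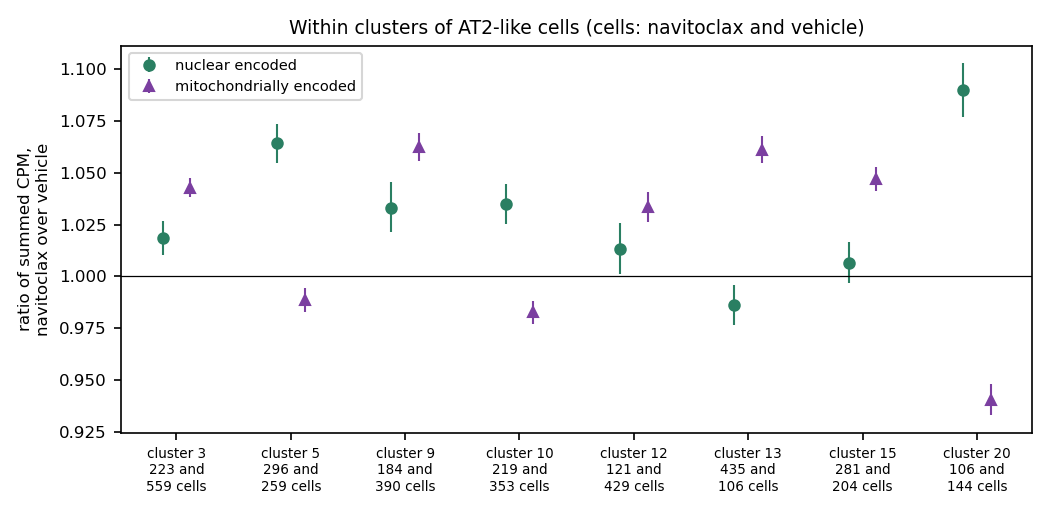
Ratio of summed CPM, navitoclax over vehicle (vertical axis), of nuclear (circles) and mitochondrially encoded (triangles) subunits within 8 clusters of AT2-like cells (horizontal axis, with the number of navitoclax and vehicle cells). Bars are 95% intervals for counting error. Nuclear ratios lie above 1 in 7 clusters, and mitochondrially encoded ratios above 1 in 5.

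Other transcripts differed between the libraries in the same classes. Of the genes for cytosolic ribosomal proteins, 5 of 95 were above 0 in AT2-like and 13 of 94 in alveolar fibroblast-like cells, with a summed ratio of 0.915 (0.914 to 0.916) in AT2-like cells. The heat shock gene Hspa1a, which responds to tissue dissociation as well as to stress, had 526 CPM in navitoclax and 17.5 CPM in vehicle AT2-like cells, a ratio of 30.1 (28.1 to 32.2). The nuclear RNA Neat1 had 560 CPM in navitoclax and 964 CPM in vehicle AT2-like cells, a ratio of 0.581 (0.573 to 0.589). The part of these differences in the subunit ratios was not tested, and treatment, mice and preparation cannot be told apart with 1 library per group.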

How the data were processed

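Single-cell RNA sequencing was analysed from 1 navitoclax and 1 vehicle library of bleomycin-injured mouse lung. The deposited values are raw UMI counts per gene and barcode. The matrices name Cell Ranger 4.0.0, per the file headers. The kit was a Chromium 3′ one, per the protocols in the labels, and mm10 is the genome, per the submitters' processing notes. Settings for alignment and cell calling were not stated. The libraries hold 98517048 UMIs (navitoclax, median 9920.5 per barcode) and 97958947 UMIs (vehicle, median 9125).

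Barcodes under 500 genes or over 15% mitochondrial UMIs were removed. Over the 15% limit were 1463 navitoclax (18.1%) and 1214 vehicle (13.8%) barcodes. Since the 13 mitochondrially encoded members are the mitochondrial genes of the tables, it acts on one of the quantities reported. Scrublet (scanpy 1.11.5, expected rate 6%) then removed 217 navitoclax (3.37%) and 222 vehicle (3.00%) doublets. Free RNA was not subtracted. Each cell got the class with the highest mean scaled marker score, at least 0.25 and 0.05 above the next. This left 203 navitoclax and 205 vehicle cells without a class, and 173 navitoclax and 137 vehicle fibroblast-like cells without a subclass. Clusters were found with Leiden clustering (leidenalg 0.10.2).

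UMIs were summed per class and library. CPM have exact Poisson, shares Clopper-Pearson and ratios conditional exact 95% intervals, which cover counting error only, and limits for a count of 0 are the upper bounds of such intervals. The log2 ratio used CPM plus 5 and genes with at least 20 UMIs in the class. The interval code was tested on simulated data. Percentages beside counts of members give the share of all genes tested that met the same rule.

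The members, lists, marker genes and named-gene rule were chosen with earlier results of these data known. The rule named both members of each paralogue family, up to 3 nuclear members per class with the ratio interval farthest from 1, all mitochondrially encoded members, the 6 nuclear members with the widest class range, complex II, and up to 2 members of each related list. Other genes named were chosen after their values were seen. Coordinates come from GENCODE M21 (GRCm38), in which all 105 members were found, and promoter windows from RefSeq (GRCm38.p6). Alternatives were other mitochondrial limits, doublets kept, classes from clusters, nuclear-only CPM, equal weight per cell, thinning to 2000 UMIs, other minimum counts and pseudocounts, and leaving out the cell with most UMIs. Added after the data were seen were CPM without the 20 most abundant genes and single AT2-like clusters.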

Additional observations from a re-analysis of the deposited data

Results flagged for a closer look

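The summed ratio of the mitochondrially encoded subunits lay on opposite sides of 1 in different classes of the same 2 libraries, by little in alveolar fibroblast-like cells. In that class the median single gene was lower in the navitoclax library, as in the other classes compared. Their summed ratio, navitoclax over vehicle, was 1.01 in alveolar fibroblast-like cells, and 0.985 in AT2-like, 0.938 in ciliated-like and 0.965 in adventitial fibroblast-like cells, each with a counting interval off 1. The direction in AT2-like cells turned with the mitochondrial limit, to 1.01 with a limit of 30% and 1.07 with no limit, and the adventitial ratio was 1.00 with no limit. In ciliated-like cells the ratio was 0.926 with a limit of 30% and 0.874 with no limit. The difference between the classes was not tested, since each class has 1 library per group. The share of barcodes over the mitochondrial limit differed between the libraries in opposite directions too, with 19.0% of navitoclax and 11.4% of vehicle AT2-like barcodes and 14.4% of navitoclax and 19.2% of vehicle ciliated-like barcodes.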

How the results depend on the processing

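No paired analysis was possible because each group has 1 library. Of 483 recomputed values of 86 results, 376 kept their direction and stayed within counting error or within 1.5 times the count.

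For nuclear subunits the ratio of ciliated-like to AT2-like cells in the navitoclax library was 1.55 with a mitochondrial limit of 30%, 1.57 with no limit, 1.52 with doublets kept, 1.53 with classes from clusters, 1.59 over nuclear genes only, 1.61 with equal weight per cell, 1.61 after thinning and 1.05 without the 20 most abundant genes. In the vehicle library it was 1.56, 1.55, 1.55, 1.59, 1.62, 1.63, 1.61 and 1.08 under the same alternatives. For the mitochondrially encoded genes the navitoclax ratio was 1.42 with a limit of 30%, 1.27 with no limit, 1.36 with doublets kept, 1.39 with classes from clusters, 1.40 over nuclear genes only, 1.37 with equal weight and 0.923 without the 20 genes. The vehicle ratio was 1.55, 1.56, 1.43, 1.48, 1.48, 1.48 and 0.986 under the same alternatives, 1.49 after thinning and 1.44 without the cell with most UMIs.

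The nuclear ratio, navitoclax over vehicle, turned below 1 only within AT2-like cluster 13 (0.986). The mitochondrially encoded ratio in AT2-like cells was 1.01 with a limit of 30%, 1.07 with no limit, and 1.04, 1.06, 1.03, 1.06 and 1.05 within clusters 3, 9, 12, 13 and 15. In adventitial fibroblast-like cells it was 1.00 with no limit. In peribronchial fibroblast-like cells it was 1.01 with a limit of 30%, 1.01 with no limit, 1.02 with doublets kept, 1.01 with equal weight and 1.00 without the cell with most UMIs. Mitochondrially encoded genes above 0 numbered 9 in AT2-like cells with no limit. In adventitial fibroblast-like cells they numbered 5 with a limit of 30% or none, and 1 with classes from clusters, over nuclear genes only or without the cell with most UMIs. In peribronchial fibroblast-like cells they numbered 1 with classes from clusters. The log2 ratio of Ndufaf3 in ciliated-like cells was -0.11 after thinning.

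With classes from clusters the Cox8b share was 5.81% in navitoclax alveolar fibroblast-like cells, and the Cox4i2 share 19.4% in navitoclax and 14.7% in vehicle smooth muscle-like cells. The Ndufa4l2 share was then 10.6% in navitoclax and 8.75% in vehicle adventitial fibroblast-like cells, and 34.4% in navitoclax and 26.6% in vehicle smooth muscle-like cells. The cause of these changes was not tested. Classes under 100 cells and genes under 20 UMIs limit what could be compared.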

Other observations

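Gene lists around oxidative phosphorylation were taken as counts of genes above 0 on the log2 ratio, where 53.3% of all genes were above 0 in AT2-like cells and 50.3% in alveolar fibroblast-like cells. Electron carriers and exchange proteins were above 0 for 19 of 25 genes in AT2-like cells and 16 of 25 in alveolar fibroblast-like cells. Slc25a5, an ADP/ATP carrier of the inner membrane, had 203 CPM in navitoclax and 169 CPM in vehicle alveolar fibroblast-like cells, a ratio of 1.20 (1.15 to 1.26). Assembly factors outside the patterns were above 0 for 19 of 36 genes in AT2-like cells and 16 of 36 in alveolar fibroblast-like cells. Among them Surf1, which helps build complex IV, had 55.1 CPM in navitoclax and 66.0 CPM in vehicle alveolar fibroblast-like cells (ratio 0.834, 0.765 to 0.909).

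Genes of the tricarboxylic acid cycle were above 0 for 8 of 19 genes in both classes, and those of glycolysis for 9 of 18 in both. Ldhb, a lactate dehydrogenase subunit, had 281 CPM in navitoclax and 309 CPM in vehicle AT2-like cells (ratio 0.910, 0.890 to 0.930). It had 39.6 CPM in navitoclax and 48.2 CPM in vehicle alveolar fibroblast-like cells (ratio 0.820, 0.741 to 0.907). Mitochondrial ribosomal proteins were above 0 for 45 of 76 genes in AT2-like and 38 of 76 in alveolar fibroblast-like cells. Regulators and mitochondrial transcription factors were above 0 for 14 of 21 genes in AT2-like and 8 of 21 in alveolar fibroblast-like cells. The dissociation and stress list was above 0 for 8 of 15 genes in AT2-like and 6 of 15 in alveolar fibroblast-like cells, where Hspa1b had 343 CPM in navitoclax and 10.2 CPM in vehicle cells. Of the 4 nuclear RNAs listed, 2 were above 0 in each class.

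Over single cells thinned to 2000 UMIs, Spearman's rho between the nuclear and the mitochondrially encoded sum lay between -0.27 and 0.079 in the 5 larger classes of both libraries. Both sums share the same 2000 UMIs of a cell, and these values are a description only.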
